A study of Mus musculus with 18 samples.

Results

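Imprinted genes are read from one parental chromosome only, and the choice is held at an imprinting control region, a CpG-rich stretch of DNA that carries methylation from the egg or from the sperm. The loci described here are 10 mouse genes whose control regions are methylated on the maternal chromosome: Peg3, Snrpn, Mest, Nnat, Peg10, Plagl1, Grb10, Impact, Igf2r and Gnas. They were listed as known imprinted genes, not by a measured value, and make up 10 of the 22350 protein-coding genes that GENCODE annotates on mm9 outside chromosome Y. Each gene body with 10 kb on both sides was searched for peaks of 6 lists. A control region was placed by the annotation, as 2 kb on both sides of a landmark transcript start, which gave 11 regions because Gnas holds a pair. The landmark was the CpG-richest start of the gene itself, except that the internal CpG-rich start was used for Grb10, the start of the antisense RNA Airn for Igf2r, and the starts of Nespas and of exon 1A for Gnas. The rule's Nespas start lies at the Nesp promoter and not at the known Nespas control region. Each count over the 11 regions below thus includes 1 start that is not a known control region. The number of regions with a peak and their sorting by marks are also given with the outermost Nespas start, where they differ. Counts of peaks and of sequence matches at the regions keep the rule's start.

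The 6 lists came from 6 ChIP-seq libraries, 1 per condition, of the 18 samples in the series. KAP1 and SETDB1 were mapped in WT Hepa 1.6 cells (Hepa 1-6), a hepatoma line from a C57L mouse. H3K9me3 and H3K27ac were mapped in embryonic fibroblasts (MEFs) of C57BL/6 background that were either WT Kap1 loxP/loxP or Kap1 KO. With 1 library per condition no difference between conditions could be tested, the sequencing depth behind the peaks is unknown, and a peak does not tell the maternal from the paternal chromosome. The study's methods describe, for RNA-seq, a single Kap1 KO MEF clone grown for many passages next to its non-excised counterpart, and whether the ChIP-seq MEFs were that clone is not stated. KAP1 and the histone marks were measured in different cell types, so an overlap between them joins a hepatoma line with fibroblasts.

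KAP1, encoded by Trim28, is a corepressor that is brought to DNA by KRAB zinc finger proteins and that recruits SETDB1, the enzyme that places the repressive mark H3K9me3. At imprinting control regions the zinc finger protein ZFP57 is known to read the hexamer TGCCGC when its CpG is methylated, and KAP1 is known to help to keep the methylation of that chromosome through early development. The other parental chromosome is unmethylated, often carries an active promoter, and may then bear H3K27ac, a mark of active promoters and enhancers.

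The sequences below are shown because they hold the ZFP57 hexamer inside the KAP1 peaks of the control regions. Each is a stretch of 120 bases of the plus strand of mm9, taken from the KAP1 peak where the hexamer was densest outside annotated untranslated regions, with TGCCGC and its reverse complement GCGGCA in capitals.
Peg3 (chr7:6682764-6682883): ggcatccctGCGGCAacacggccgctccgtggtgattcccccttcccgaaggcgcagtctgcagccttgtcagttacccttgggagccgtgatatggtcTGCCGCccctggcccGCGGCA
Snrpn (chr7:67149487-67149606): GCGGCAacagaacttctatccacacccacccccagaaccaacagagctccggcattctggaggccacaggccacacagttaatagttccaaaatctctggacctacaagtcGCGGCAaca
Mest (chr6:30687606-30687725): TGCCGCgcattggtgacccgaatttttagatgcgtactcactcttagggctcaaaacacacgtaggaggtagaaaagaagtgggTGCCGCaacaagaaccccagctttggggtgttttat
Nnat (chr2:157386073-157386192): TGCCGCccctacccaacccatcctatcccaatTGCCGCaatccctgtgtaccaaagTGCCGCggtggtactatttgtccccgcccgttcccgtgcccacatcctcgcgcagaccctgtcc
Plagl1 (chr10:12810831-12810950): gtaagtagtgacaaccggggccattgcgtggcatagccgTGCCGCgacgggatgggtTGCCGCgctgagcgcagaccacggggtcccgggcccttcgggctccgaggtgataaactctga
Peg10 (chr6:4697924-4698043): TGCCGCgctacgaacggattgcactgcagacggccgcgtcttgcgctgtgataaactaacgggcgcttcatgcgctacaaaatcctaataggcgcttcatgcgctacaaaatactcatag
Gnas at Nespas (chr2:174121377-174121496): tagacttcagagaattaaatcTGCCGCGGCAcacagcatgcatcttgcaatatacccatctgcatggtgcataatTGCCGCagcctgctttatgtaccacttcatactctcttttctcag
The stretches of Peg3, Nnat and the Nespas region held 3 hexamers each, those of Snrpn, Mest and Plagl1 held 2, and that of Peg10 held 1. At Nespas a forward and a reverse copy overlapped by 2 bases. All lay in introns of the gene or of its neighbour, and that of Nnat also reached into a Nnat exon. Untranslated regions were left out, so this location follows in part from the choice of stretches. No stretch is shown for Grb10 and Impact, whose KAP1 peaks also held the hexamer.

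KAP1 was listed at every one of the 10 loci, against 35.9% of protein-coding genes that have a KAP1 peak in their body or within 10 kb of it. The SETDB1 list, whose 2957 peaks are all entries of the list of 13366 KAP1 peaks and carry the KAP1 scores, held a peak at 9 of 10 loci, where the share for all genes was 6.85%. Igf2r was the locus without one. At the 11 control regions, KAP1 had a peak at 10, against 19.1% of the CpG-richest starts of all genes, and the SETDB1 list had one at 8, against 1.83%. With the outermost Nespas start these were 10 and 9. Restricting the starts to the 16320 that hold at least 17 CpG in 1 kb, as many as the least CpG-rich landmark (Impact), gave 25.4% for KAP1 and 2.32% for the SETDB1 list.

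**Figure D1:**
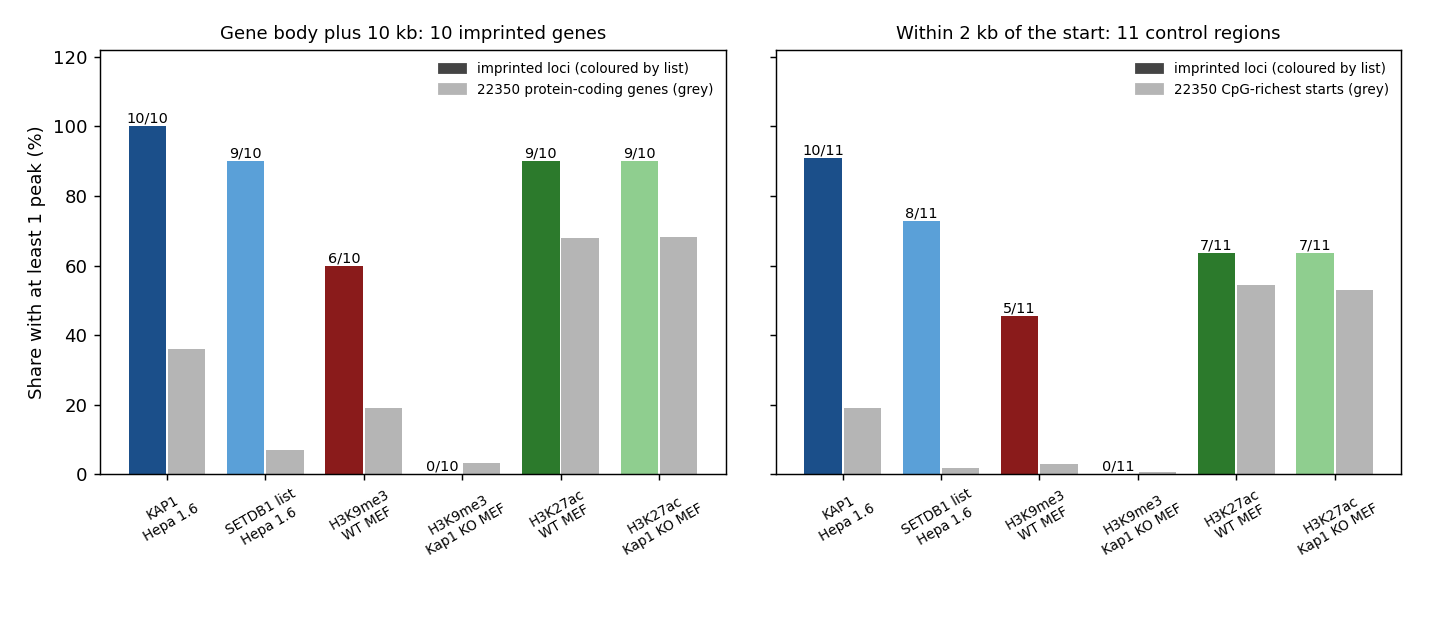
Share (%) of the 10 imprinted genes (left, gene body plus 10 kb) and of the 11 control regions (right, 2 kb on both sides of the start) with at least 1 peak in each of the 6 lists, in colour, beside the same share for 22350 protein-coding genes or their CpG-richest starts, in grey. The coloured bar exceeds the grey one in every list but H3K9me3 of Kap1 KO MEFs, where it is at 0 of 10 and 0 of 11. For H3K27ac on the right this holds only against the starts of all genes. Among starts with at least 17 CpG, which are not drawn, the H3K27ac shares were 71.7% in WT and 69.5% in KO, above the 7 of 11.

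The 8 control-region peaks in the SETDB1 list had a median MACS score of 2922 and a median width of 1618 bp. The whole SETDB1 list had medians of 196.0 and 791.0 bp, and the whole KAP1 list 149.0 and 701.0 bp. The KAP1 peaks at the rule's Nespas start and at exon 1A, with scores of 161 and 153, were outside the SETDB1 list and are not among the 8. The MACS score grows with the significance of a peak over input and stands at exactly 3100 for 207 KAP1 peaks, so that it ranks peaks below that value and does not rank those at it. Snrpn, Mest, Nnat and Plagl1 stood at 3100, which 211 peaks of the list (1.58%) reached or passed. The remaining scores were 2744 at Peg10, 2618 at Grb10, 2551 at Impact and 2041 at Peg3, the last of which ranked 328th. The peaks sat on the landmark starts or just downstream of them.

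At Snrpn, whose product SmN is a component of spliceosomal particles and whose domain is the mouse counterpart of the Prader-Willi region, the KAP1 peak was chr7:67148718-67150400, 1683 bp wide, over an annotated internal start. No other KAP1 peak was listed across the Snrpn gene body of 157718 bp and its flanks. At Peg3, which encodes a zinc finger protein, the peak was chr7:6681610-6683130, 1521 bp wide, and began 2 bp downstream of the start. At Mest, which encodes a hydrolase-like protein expressed in mesoderm, the peak was chr6:30686565-30689277, 2713 bp wide, and covered the start on both sides. At Nnat, which encodes a small membrane protein of brain and endocrine cells and lies inside Blcap, it was chr2:157384810-157388085. With 3276 bp this was the widest of the 8, and it covered the Nnat gene nearly whole.

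Peg10, a gene derived from a retrotransposon and needed for the placenta, had its KAP1 peak at chr6:4697322-4698835, 1514 bp wide. Plagl1, a zinc finger transcription factor, had one at chr10:12809975-12811527, 1553 bp wide, over its start. Grb10, an adaptor that restrains insulin and growth factor signalling, had its main peak at chr11:11925545-11926807 over the internal CpG-rich start, with 1263 bp the narrowest. Both other KAP1 peaks in the Grb10 window were outside the SETDB1 list and had scores of 100 in the gene body and 132 near the outer promoter. Impact, an inhibitor of the kinase GCN2, had a peak at chr18:13131227-13133121, 1895 bp wide, that lay wholly in an annotated intron and began 466 bp downstream of the start.

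**Figure D2:**
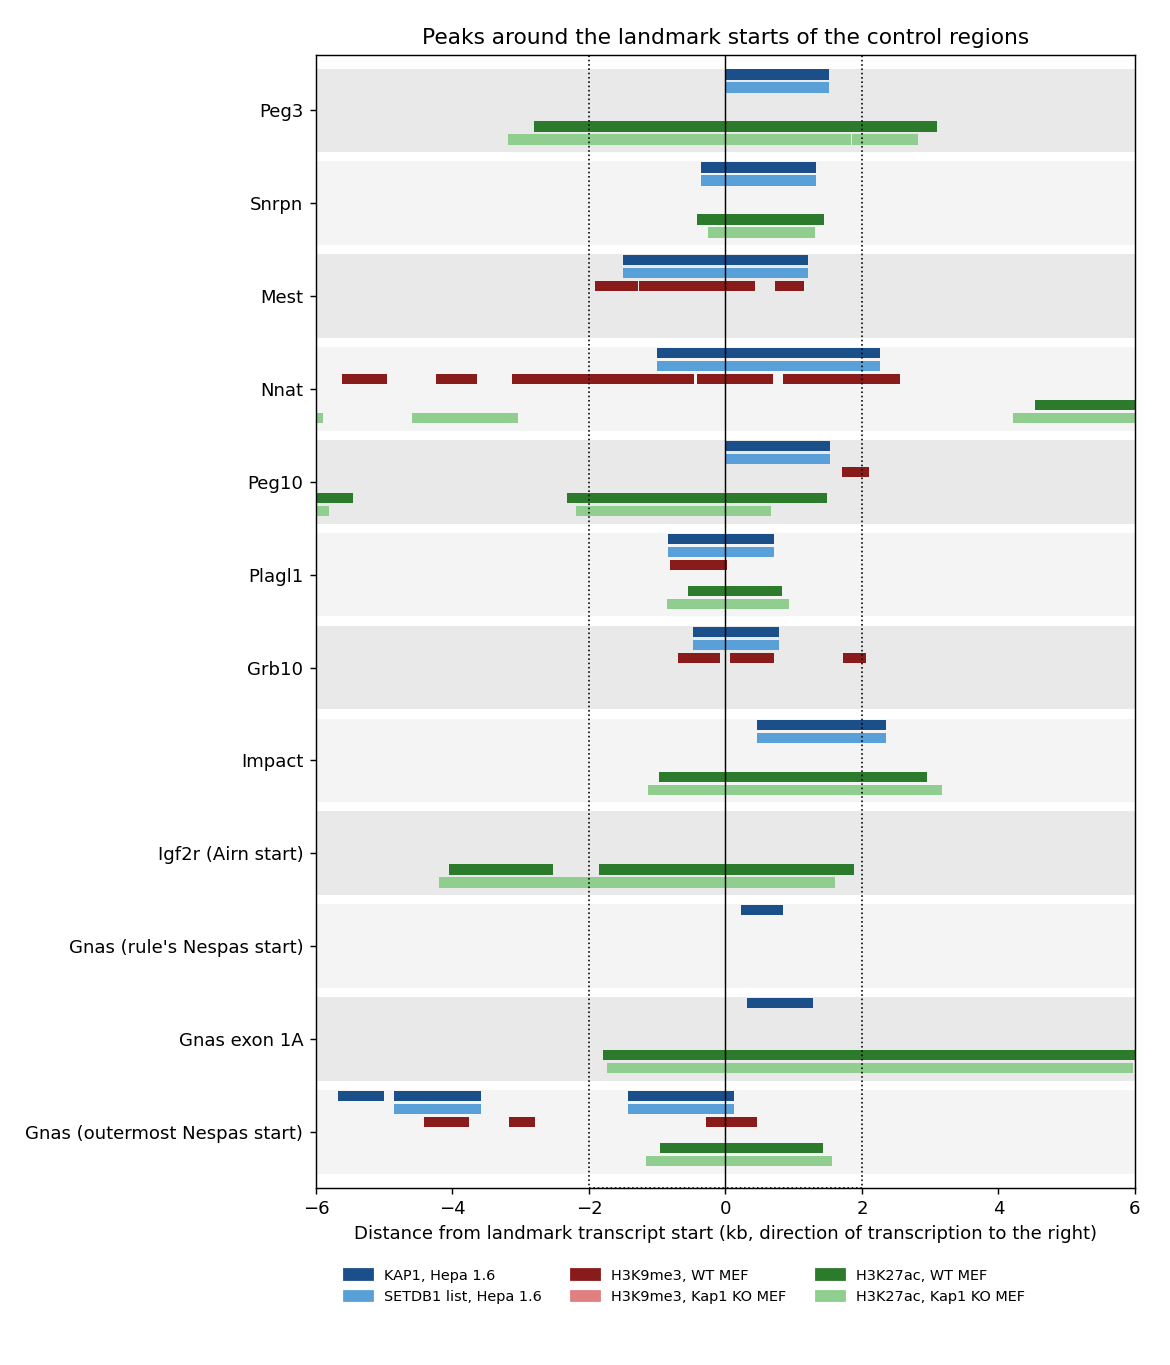
Peaks within 6 kb of the landmark start of each control region (x axis, kb, transcription to the right), 1 row per region and 1 coloured bar per peak of the 6 lists, with the window of 2 kb between the dotted lines. A KAP1 bar lies within or reaches into the dotted lines in every row but that of Airn, and no row holds a bar of H3K9me3 from Kap1 KO MEFs.

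Igf2r, the receptor that clears IGF2 and that in the mouse is expressed from the maternal chromosome while Airn is transcribed from the paternal one, was the exception. No KAP1 or SETDB1 list peak lay within 2 kb of the Airn start at position 12934264 of chromosome 17. The only KAP1 peak of the locus was at the Igf2r promoter, chr17:12962082-12962645, with a score of 135, and was not in the SETDB1 list. The sequence held 3 copies of the hexamer in the 1 kb and 8 in the 4 kb around the Airn start. These counts are centred on the start and not on a peak, and no share was computed for a window of 4 kb. A link between the hexamer and the missing KAP1 peak was not tested.

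Gnas, which encodes the stimulatory G protein alpha subunit and several alternative products, depended on the landmark. The placing rule chose a short Nespas transcript that starts next to the Nesp promoter, away from the known control region, where the KAP1 peak at chr2:174110098-174110704 scored 161 and was not in the SETDB1 list. At the outermost Nespas start, a landmark chosen after the data were seen, the peak was chr2:174120808-174122359, 1552 bp wide, scored 3100 and was in the SETDB1 list. A second SETDB1 list peak with a score of 1408 followed at chr2:174124518-174125791, over a Gnas exon. At exon 1A the KAP1 peak, chr2:174153834-174154806, scored 153 and was not in the SETDB1 list. Over all 10 loci, 10 of the 18 KAP1 peaks were in the SETDB1 list, against 22.1% of all KAP1 peaks.

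**Figure D3:**
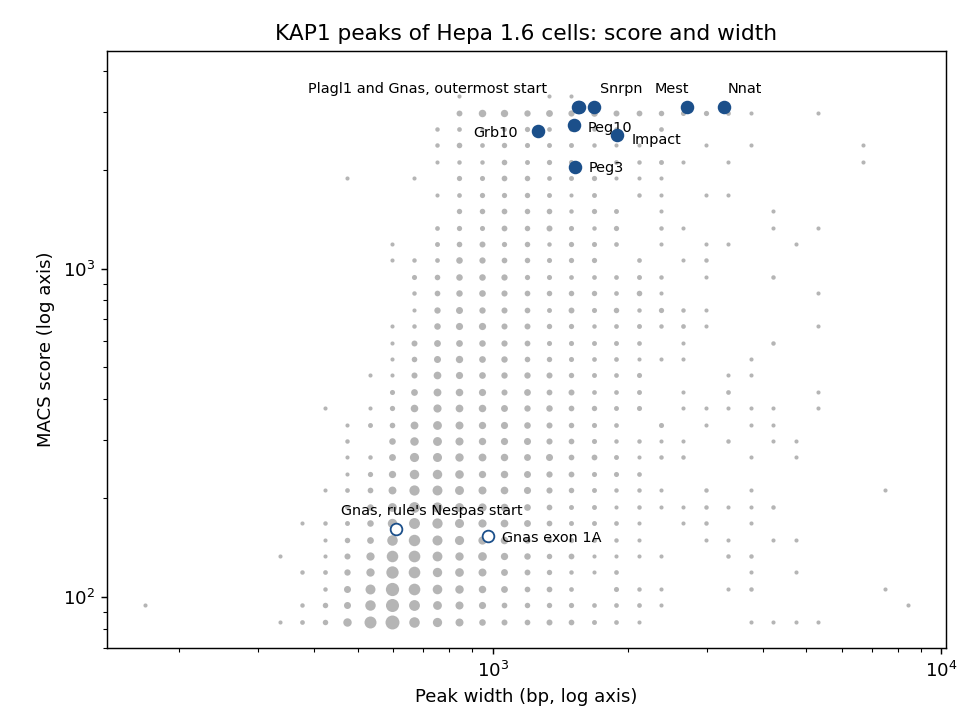
MACS score against width (bp) of KAP1 peaks in Hepa 1.6 cells, both on log axes, with grey dots for bins of all 13366 peaks (larger for more peaks) and circles for control-region peaks, filled where the peak is in the SETDB1 list. The filled circles lie between scores of 2041 and 3100 and the open ones, both at Gnas, at 161 and 153.

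The hexamer was counted on both strands in the central 1 kb of each KAP1 peak. The 8 SETDB1-list peaks at control regions held a median of 5.00, from 2 at Peg10 to 10 at Mest. Between these, Nnat held 3, Grb10 and Impact 4 each, Peg3 and Plagl1 6 each, and Snrpn 9. The Nespas peak at the outermost start held 5, and those at the rule's Nespas start and at exon 1A held 2 each. Thus 8 of 8 had at least 1 copy and 4 of 8 had 5 or more. Among all KAP1 peaks 46.0% had at least 1 and 0.643% had 5 or more, and among those of the SETDB1 list 72.2% and 1.39%. Among KAP1 peaks with at least 50 CpG in the central 1 kb these shares were 59.5% and 1.81%. In windows of 1 kb around the CpG-richest starts of all genes they were 38.1% and 0.506%. A match is a description of the letters, and no binding of ZFP57 was measured.

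**Figure D4:**
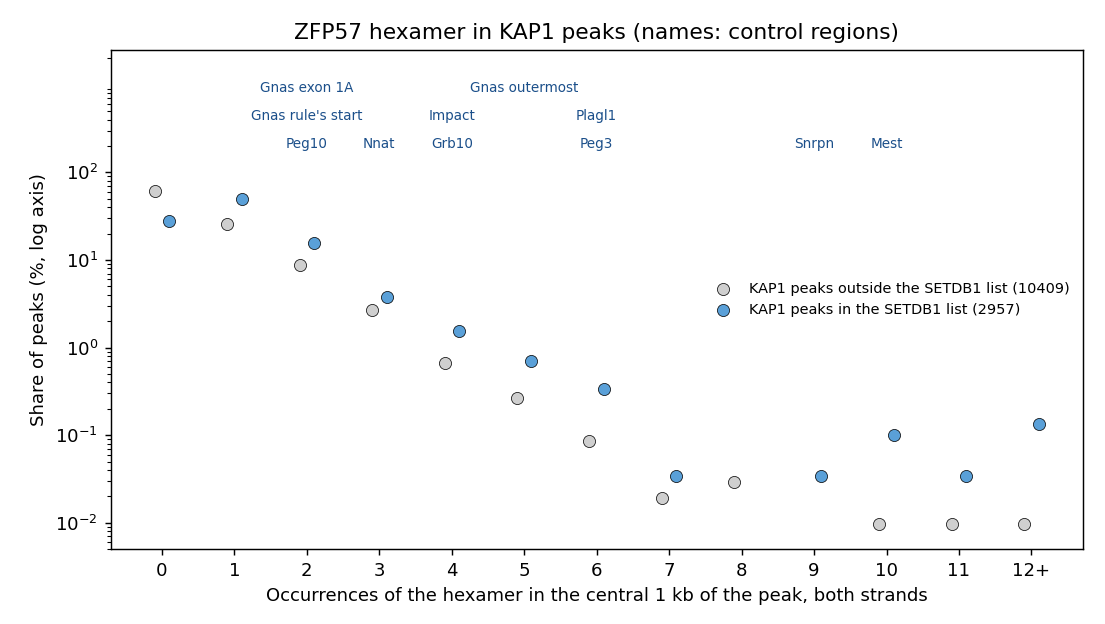
Occurrences of the hexamer in the central 1 kb of KAP1 peaks (x axis) against the share of peaks (%, log axis), for peaks in the SETDB1 list (blue) and outside it (grey), with the control regions named above their own counts. Mest at 10 and Snrpn at 9 stand where few other peaks do, and Peg10 at 2 stands among many.

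The H3K9me3 list of WT MEFs had a peak at 6 of 10 loci, against 19.0% of all genes, and at 5 of 11 control regions, against 2.90% of CpG-richest starts, or 490 of the 16320 with at least 17 CpG. Those regions were Mest, Nnat, Peg10, Plagl1 and Grb10, and the outermost Nespas start would be the 6th. Nnat had the highest scores, 864.03 (chr2:157382687-157385347), 258.99 and 745.02 (chr2:157386653-157388379), in 3 peaks that ran from a Blcap exon over most of Nnat. Mest had 3 peaks of 152.13, 473.88 and 55.99, the middle one over its start. Grb10 had 3 of 54.28, 185.7 and 128.1 around the internal start. A single peak was listed at Plagl1 with 131.23, at Nespas with 122.29 and at Peg10 with 94.13. The list's median score was 79.90, which the single peak at each of those regions exceeded.

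H3K9me3 at the loci lay in part outside the control regions as the rule placed them. The 3 Gnas peaks counted as outside, although that of 122.29 lay at the outermost Nespas start. The Gnas peak of 100.22 lay under the second SETDB1 list peak of that locus. Of the 20 WT peaks in the 10 windows, 11 overlapped a control region and 9 of those 11 also overlapped a KAP1 peak of the hepatoma line. Those without KAP1 were the weakest Grb10 peak and the Peg10 peak, which began 173 bp beyond the end of the KAP1 peak. The share of all WT H3K9me3 peaks that overlap a KAP1 peak was not computed, so the 9 of 11 does not set these regions apart. Read from KAP1, 4 of the 8 SETDB1-list peaks overlapped a WT MEF H3K9me3 peak, against 13.9% of all KAP1 peaks. The 13.9% is not limited to the SETDB1 list, for which no such share was computed. The KAP1 peaks at exon 1A and at the rule's Nespas start, outside that list, overlapped no H3K9me3 peak.

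No H3K9me3 peak was listed at Peg3, Snrpn, Impact or Igf2r in WT MEFs, neither at the control region nor in the rest of the window. Listed H3K9me3 peaks were unevenly spread over the chromosomes. The WT list held 1.44 per Mb on chromosome 7, which carries Peg3 and Snrpn, and 0.892 on chromosome 18, which carries Impact, where the genome as a whole held 5.43. It held 8.31 on chromosome 6 with Mest and Peg10, 11.9 on chromosome 10 with Plagl1, 11.4 on chromosome 11 with Grb10 and 3.73 on chromosome 2 with Nnat and Gnas. Chromosome 17 with Igf2r, at 11.6 per Mb, departed from that order. Among the other maternally methylated regions read below, Inpp5f on chromosome 7 had a WT peak of 91.76 and Zrsr1 on chromosome 11 had none, which also departed from it. Mcts2 on chromosome 2, Nap1l5 on chromosome 6 and Slc38a4 on chromosome 15, at 9.60 per Mb, had a WT peak. The part of the uneven spread over chromosomes in the missing peaks was not tested.

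In Kap1 KO MEFs no H3K9me3 peak was listed at any of the 10 loci, against 3.36% of all genes, nor at any of the 11 control regions, against 0.765% of CpG-richest starts. All 20 WT peaks were thus without an overlapping peak in the KO list. This did not set the loci apart, because 96.8% of all WT H3K9me3 peaks had no overlapping KO peak and the KO list held 4319 peaks against 14425. Whether fewer marked sites or a weaker library gave them cannot be told apart from 1 library.

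H3K27ac had a peak at 9 of 10 loci in WT and at 9 of 10 in Kap1 KO MEFs, against 67.8% and 68.2% of all genes. At the control regions it had one at 7 of 11 in each genotype, or 8 with the outermost Nespas start, against 54.5% and 53.1% of CpG-richest starts. Among starts with at least 17 CpG these shares were 71.7% and 69.5%, so H3K27ac was no more frequent at the control regions than at other CpG-rich starts. The score stood at 3100 in 9975 of 36275 WT and 7710 of 36436 KO peaks. Peg3, Impact, Airn and exon 1A of Gnas were at 3100 in both genotypes. The peak at exon 1A was 7860 bp wide in WT and 7713 bp in KO, and reached 6070 and 5975 bp past the landmark. It thus also covered the last full-length coding start of Gnas, 1 to 5 kb downstream, and its score is not that of exon 1A alone. Peg10 scored 3100 in WT and 2767.92 in KO, Snrpn 452.45 and 272.46, and Plagl1 316.25 and 523.35. The outermost Nespas start had 1780.25 and 1517.32. No H3K27ac peak was listed at the control regions of Mest, Nnat and Grb10 in either genotype, also not in the KO cells that had no H3K9me3 peak there.

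**Figure D5:**
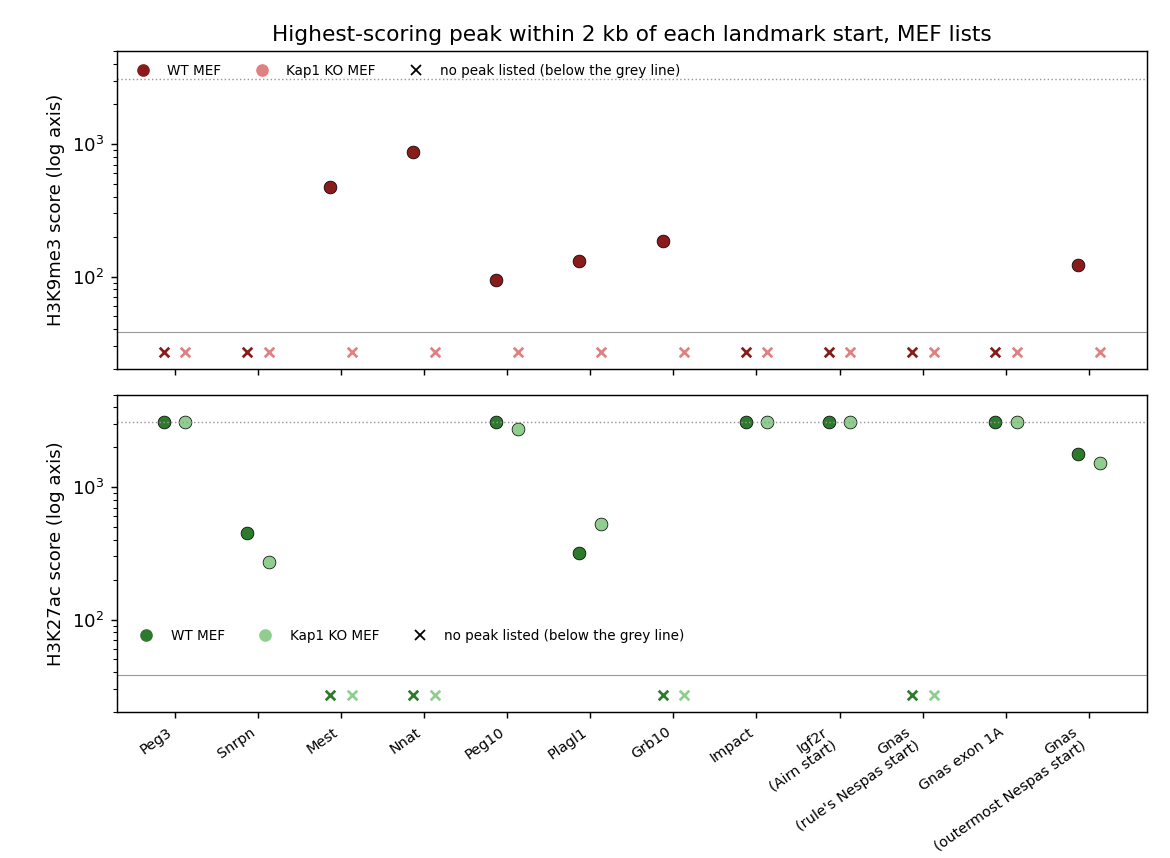
Highest MACS score (log axis) of an H3K9me3 peak (top) and of an H3K27ac peak (bottom) within 2 kb of each landmark start, in WT (dark) and Kap1 KO (light) MEFs, with crosses under the grey line where no peak is listed and a dotted line at 3100. The 3 regions Mest, Nnat and Grb10 have H3K9me3 in WT and no H3K27ac, while Peg3, Snrpn, Impact, Airn and exon 1A have the reverse.

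The marks thus sorted the 11 control regions of WT MEFs into 4 sets. At Mest, Nnat and Grb10, 3 regions, there was H3K9me3 without H3K27ac. At 5 regions, Peg3, Snrpn, Impact, Airn and exon 1A, there was H3K27ac without H3K9me3, where the peak at exon 1A also covered the coding start downstream. Peg10 and Plagl1, 2 regions, had both, and the rule's Nespas start, 1 region, had neither. With the outermost Nespas start, which had both marks, no region had neither and Peg10, Plagl1 and Nespas, 3 regions, had both. At Plagl1 the H3K9me3 and H3K27ac peaks overlapped over the start, and at Peg10 the H3K27ac peak ended 209 bp before the H3K9me3 peak began. Over the 11 H3K9me3 peaks at these regions, 1 overlapped an H3K27ac peak, against 1.39% of all WT H3K9me3 peaks, a count too small to set against that share. The H3K9me3 peak at the outermost Nespas start, not among these 11, also overlapped H3K27ac. Of the 8 SETDB1-list KAP1 peaks, 5 overlapped H3K27ac of WT MEFs, against 36.9% of all KAP1 peaks, and 5 overlapped that of KO MEFs. The 36.9% is not limited to the SETDB1 list, and no share was computed for that list or for KO MEFs. Outside the list, the KAP1 peak at exon 1A overlapped H3K27ac in both genotypes and that at the rule's Nespas start in neither. A mixed signal from both chromosomes cannot be separated by peak lists.

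Away from the control regions, H3K27ac marked other promoters of the same loci. The outer Grb10 promoter had a peak at 3100 in both genotypes (chr11:11934077-11939369 in WT). The Blcap promoter beside Nnat was also at 3100 in both (chr2:157390344-157394059 in WT). At the Igf2r promoter the peak of chr17:12960845-12963047 scored 1435.71 in WT, and that of KO scored 255.71 with 1178 bp in place of 2203. At an Igf2r exon, chr17:12916504-12919788, the scores were 1956.46 and 205.22, while Airn was at 3100 in both. No fold is drawn from these scores, since they depend on depth and have no replicate.

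Few H3K27ac peaks of the loci were in one genotype only. Of the 26 WT peaks, 4 had no overlapping KO peak, against 22.8% of all WT peaks, and all of these lay in Grb10 introns with scores between 59.75 and 89.3. Of the 23 KO peaks, 1 had no overlapping WT peak, against 22.8% of all KO peaks. It lay over a Blcap exon next to Nnat (chr2:157381225-157382774), with a score of 164.61, and overlapped WT H3K9me3 peaks of 91.48 and, at its edge, 864.03. Among the 22 WT peaks with a KO partner, the KO score was lower in 11, equal in 6 and higher in 5. Over all 28006 such pairs it was lower in 46.3% and higher in 28.3%, near the shares at the loci.

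Neighbouring genes of the same imprinted domains were looked at by their own starts. Of 17 listed genes 16 were annotated. Among these 4 had a KAP1 peak within 2 kb of a start, 2 a SETDB1 list peak, 3 an H3K9me3 peak in WT and 1 in KO, and 7 an H3K27ac peak in each genotype. Any start of a neighbour counted here, and the shares for the CpG-richest start of all genes were 19.1%, 1.83%, 2.90%, 0.765%, 54.5% and 53.1% in the order of KAP1, the SETDB1 list, H3K9me3 in WT and KO, and H3K27ac in WT and KO. Ube3a and Copg2, the neighbours of Snrpn and Mest, had H3K27ac at 3100 in both genotypes. Blcap and Sgce share the peaks of Nnat and Peg10, next to which they lie. Ndn and Magel2 of the Snrpn domain had no peak at their starts in any of the 6 lists. As a check of the cell type, 7 of 7 fibroblast markers, Col1a1 and Vim among them, had H3K27ac at a start in both MEF lists, and 0 of 6 markers of other cell types did. Within the gene body plus 10 kb, 7 of 7 and 3 of 6 had an H3K27ac peak in each list, the 3 being Ptprc, Cdh5 and Pou5f1.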

How the data were processed

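Peak lists of 6 ChIP-seq libraries were analysed, 1 per condition: H3K27ac and H3K9me3 of WT and of Kap1 KO MEFs, besides SETDB1 and KAP1 of the Hepa 1.6 line. The authors mapped reads to mm9 with Bowtie2 in its sensitive-local mode (version 2.2.1 per the labels) with peak calling by MACS 1.4, total input serving as the control. The score deposited by the authors for each peak is the MACS score, and all deposited peaks were used. The methods give a cutoff score of 80, while the MEF lists begin at 50. No count of reads was analysed here, so depth is unknown. The remaining libraries of the series were not used here.

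A peak was counted with an overlap of 1 bp or more. Genes, exons and starts came from GENCODE vM1 on NCBIM37 (mm9), and sequences from that genome (pysam 0.24.0, Python 3.11.15). Overlap counts were tested on simulated intervals against bedtools 2.31.1. The background was the share of 22350 protein-coding genes, outside chromosome Y, or of the CpG-richest start of each. There was no test between conditions. The landmark of each control region was the start with the most CpG in 1 kb. For Grb10 it was chosen among starts at least 10 kb from the outermost one, and for Gnas exon 1A it was the Gnas start 1 to 5 kb upstream of the last full-length coding start. The genes named are the 10 members, with every peak at a control region and otherwise the highest scores or the peaks in one genotype only. Neighbours and other maternally methylated regions were fixed lists, given by counts and examples. The members and lists were chosen with earlier results of these data known, and the outermost Nespas start was added after the data were seen. Alternatives were a score of 80, the upper 50% of scores, a stricter overlap, other window sizes and equal peak numbers.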

Additional observations from a re-analysis of the deposited data

How the results depend on the processing

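All 71 recomputed counts stayed within the limit set for a change, 1.5 times the count or less. Some of them could not have left it. Stricter settings cannot raise the count of 0 for H3K9me3 in Kap1 KO MEFs, and wider windows cannot raise KAP1 above 10 of 10 loci. KAP1 stayed at 10 of 11 control regions and the SETDB1 list at 8 under each window size, score limit and overlap tried, and at 10 and 9 with the outermost Nespas start. WT H3K9me3 stood at 4 to 6 regions, lowest with a window of 1 kb, and at 4 without a KO peak when both lists were cut to the same number of peaks. H3K27ac stood at 5 to 8 regions in each genotype, lowest with the upper 50% of scores. No paired analysis was possible because there is 1 library per condition. Scores at 3100 cannot be ranked, and absence from a list does not show absence of a mark.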

Other observations

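The lists were also read at other regions that are methylated on the maternal chromosome. Of 7 such regions 5 were in the annotation, and the others, Kcnq1ot1 and Peg13, were not analysed here. Mcts2, Nap1l5, Zrsr1 and Inpp5f, 4 of 5, had a KAP1 peak with a score of 3100 that was in the SETDB1 list. The central 1 kb of these peaks held 3, 5, 0 and 6 copies of the hexamer in that order, so the Zrsr1 peak had none there and 2 in the whole peak. WT MEFs had H3K9me3 peaks at 4 of 5, and Kap1 KO MEFs had 0 of 5. The highest WT scores were 388.5 at Mcts2, 193.29 at Nap1l5, 91.76 at Inpp5f and 81.02 at Slc38a4. Among the CpG-richest starts of all genes, 19.1% had a KAP1 peak and 1.83% a SETDB1 list peak. For H3K9me3 these shares were 2.90% in WT and 0.765% in KO. The 0 of 5 does not set these regions apart, because 96.8% of all WT H3K9me3 peaks had no overlapping KO peak. Nap1l5 and Inpp5f had no H3K27ac peak in either genotype, as at Mest, Nnat and Grb10.

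Slc38a4, an amino acid transporter gene, had no KAP1 peak in the hepatoma line. It had an H3K27ac peak with a score of 2625.67 in WT MEFs and none in Kap1 KO MEFs. Of the 5 regions, 3 had H3K27ac in WT, and Slc38a4 was the only one of these without it in KO. Among all WT H3K27ac peaks 22.8% had no overlapping KO peak, so 1 of 3 does not set it apart. The difference rests on 1 library per genotype and was not tested. Trim28 itself, the gene that encodes KAP1, had H3K27ac peaks at its promoter in both genotypes, which does not check the deletion.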
